A study of Mus musculus with 12 samples.

Results

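The genes described here are the mouse D-type cyclins Ccnd1, Ccnd2 and Ccnd3, the kinases Cdk4 and Cdk6, the INK4 inhibitors Cdkn2a, Cdkn2b, Cdkn2c and Cdkn2d, and the p27 gene Cdkn1b. They were chosen by name and function from the 35275 genes in the count files, with their fold changes in the contrasts below already known from the same counts, and all 10 passed the filter on low counts, which kept 12849 genes. Their values in 12 RNA-seq libraries of bone marrow-derived macrophages (BMDMs) were compared between the vehicle DMSO, the PARP inhibitor olaparib and methyl-nicotinamide (MNA, a derivative of the NAD precursor nicotinamide), with 4 libraries per group. All 3 groups were wildtype mouse bone marrow cells that had been given M-CSF at 20 ng/ml, IL-4 at 20 ng/ml and IL-10 at 10 ng/ml, with DMSO, olaparib or MNA for 6 days. The methods give donors of 6 to 10 weeks and 4 donor mice per experiment. No source used here ties a library to 1 mouse or gives the strain or the drug doses of these libraries, so p-values measure only the spread between these samples, which may be technical.

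D-type cyclins bind CDK4 or CDK6, and the active kinase phosphorylates the retinoblastoma protein, which releases E2F factors and lets a cell enter S phase. INK4 proteins bind the kinases and keep the D cyclins off them, while p27 blocks CDK2 complexes and also binds cyclin D-CDK4 complexes. In macrophages M-CSF is the classic signal for D cyclin transcription, and Cdkn2a and Cdkn2b lie side by side in a locus that is known for its rise in senescent and aged cells.

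Total counts were 21146291 to 31446849 per library. Of the 8 macrophage markers all were tested, and their summed level was 3904 to 5050 CPM (counts scaled to a common library size) with DMSO, 8498 to 10219 with olaparib and 3628 to 7485 with MNA. Lyz2 was the largest part with DMSO (1625 to 2532 CPM) and olaparib (5114 to 6559 CPM). At the threshold given below, 4 of the 8 rose with olaparib and 1 fell, Cd68 (1095 to 1309 CPM with DMSO, 813 to 869 with olaparib). Summed B cell, T cell, mast cell, eosinophil and stromal markers stayed at or under 6.56 CPM in every library, dendritic cell markers summed to 12.3 to 20.5 CPM and progenitor markers to 5.46 to 11.2 CPM. At these low levels the 3 tested B cell markers rose with MNA, and the T cell marker Cd3e and the progenitor marker Cd34 rose with both treatments, none of them above 3.36 CPM in any library. MNA replicate 4 held 50.4 CPM of neutrophil and 54.4 CPM of erythroid markers, against at most 7.78 and 3.70 CPM in any DMSO or olaparib library. MNA replicate 2 stood apart from the other MNA libraries and lay with DMSO on the first principal component of all tested genes (-36.0, against -43.7 to -33.6 for DMSO and 59.9 to 63.4 for MNA replicates 1, 3 and 4). Its 6 alternative activation markers summed to 32100 CPM, close to the lowest DMSO library at 33159, whereas the lowest MNA library held 1130 and the olaparib libraries 18860 to 30434. Chil3 made up most of the sum with DMSO (30405 to 50791 CPM) and olaparib (17069 to 27248 CPM). Only Ccl24 passed the threshold with olaparib, and it was lower. Of the others, Arg1 and Retnla had positive values with olaparib, and Chil3, Mrc1 and Pdcd1lg2 negative ones. No label explains why MNA replicate 2 stood apart. It is therefore shown apart in the levels, and the MNA fold changes of the 10 genes are given with and without it. It was set apart on its expression, so adjusted p-values without it are too small.

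Levels are CPM after TMM normalization, and log2 fold changes, their standard errors (SE) and adjusted p-values come from edgeR's quasi-likelihood fit of all tested genes, with Benjamini-Hochberg adjustment and a threshold of 0.05. Because the 10 genes were chosen with these contrasts known, an adjusted p places a gene among all genes in the fit and is not independent evidence.

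In length-corrected terms (CPM per kilobase of exon), Cdk4 was the most abundant of the 10 with DMSO at 37.4 ± 1.79 (SD, n = 4), followed by Cdkn2a at 20.5 ± 4.57 and Ccnd1 at 14.0 ± 3.85, whose ranges overlapped. Cdkn2b was at 10.4 ± 2.21 and Cdkn1b at 7.03 ± 0.553, and these ranges did not overlap. Ccnd3, Cdk6 and Ccnd2 were the lowest at 1.44 ± 0.340, 1.08 ± 0.157 and 0.683 ± 0.184, each range overlapping its neighbour's. With olaparib Ccnd1 was second at 19.3 ± 2.74 CPM per kilobase and Cdkn2a was at 5.97 ± 1.82, within the ranges of Cdkn2d and Cdkn2b. In MNA replicates 1, 3 and 4 Ccnd3 at 5.76 ± 0.602 and Ccnd2 at 5.04 ± 0.734 (SD, n = 3) lay in the middle of the order, and Cdk6 at 0.634 ± 0.103 was lowest.

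**Figure D1:**
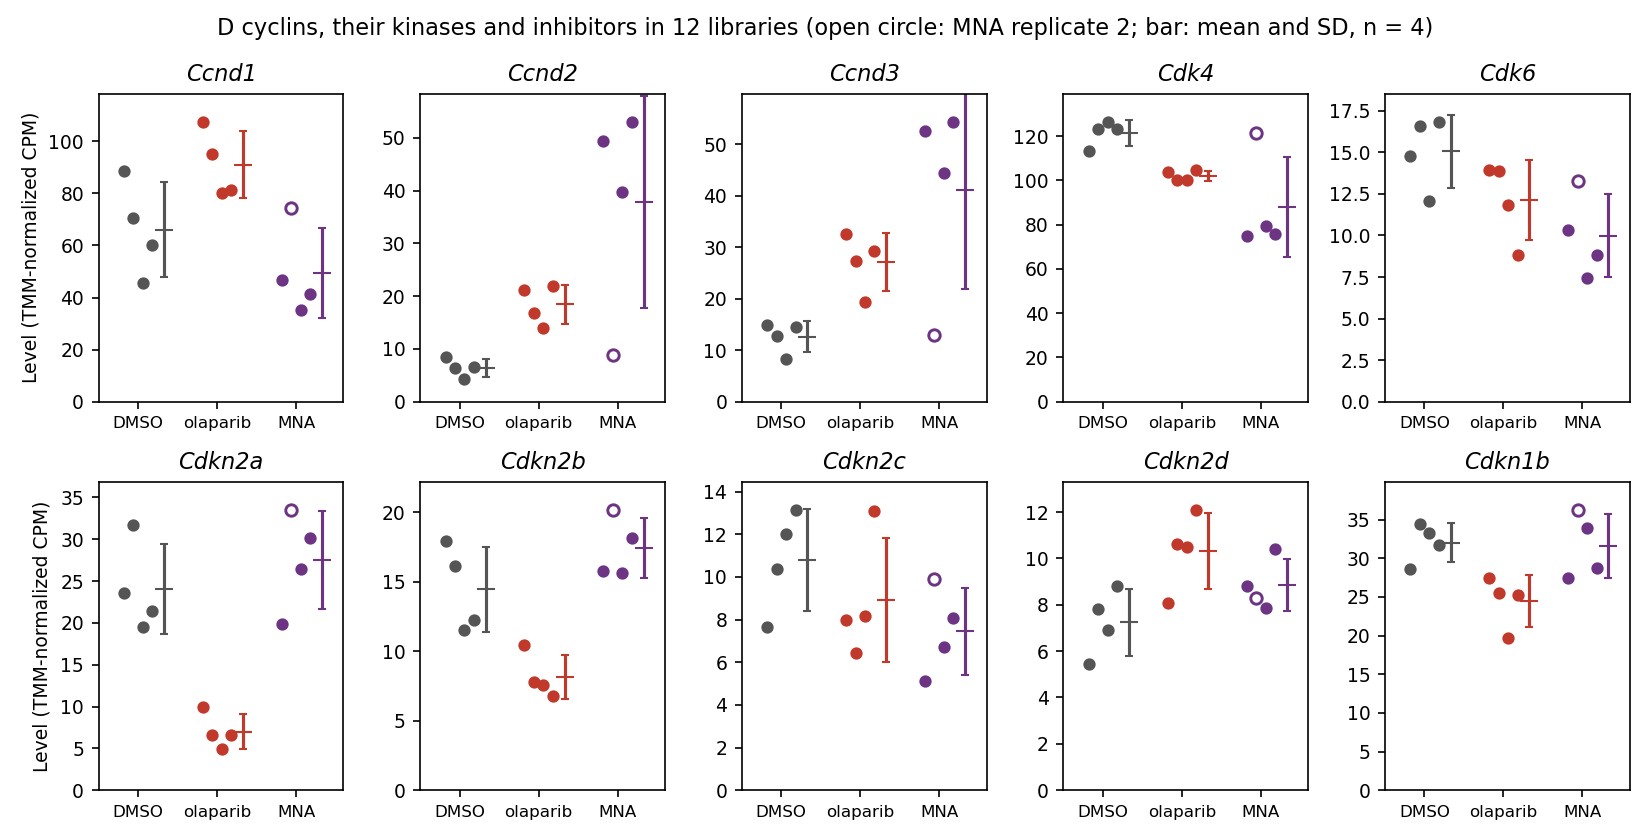
Levels of the 10 genes in each library, in TMM-normalized CPM on linear axes from 0; points are libraries in order of replicate number, the open circle is MNA replicate 2, and bars are the mean and SD of 4 libraries. Ccnd2 and Ccnd3 lie highest in 3 MNA libraries, Cdkn2a and Cdkn2b lie lowest in the 4 olaparib libraries, and MNA replicate 2 sits at the DMSO level of Ccnd2, Ccnd3 and Cdk4.

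With olaparib, 3 of the 10 genes rose (Ccnd2, Ccnd3 and Cdkn2d) and 3 fell (Cdkn2a, Cdkn2b and Cdkn1b), where 27.0% of all tested genes were called, 14.3% up and 12.8% down. With MNA, 2 rose (Ccnd2 and Ccnd3) and 2 fell (Cdk4 and Cdk6), where 28.6% of all tested genes were called, 16.3% up and 12.3% down. Between olaparib and MNA directly, Ccnd1 was higher with olaparib and Cdkn2a, Cdkn2b and Cdkn1b were lower, where 21.8% of all tested genes were called, 10.9% in each direction. Without MNA replicate 2, 8 of the 10 were called with olaparib (43.7% of all genes), 6 with MNA (54.1%) and 8 between the treatments (42.3%). In a fit of DMSO and MNA alone edgeR called 0 of 12379 genes, these 10 included (lowest adjusted p = 0.0640, with 4728 genes at an unadjusted p under 0.05), while DESeq2 on all 12 libraries called 4449 genes. Both treatments were compared with the same 4 DMSO libraries.

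**Figure D2:**
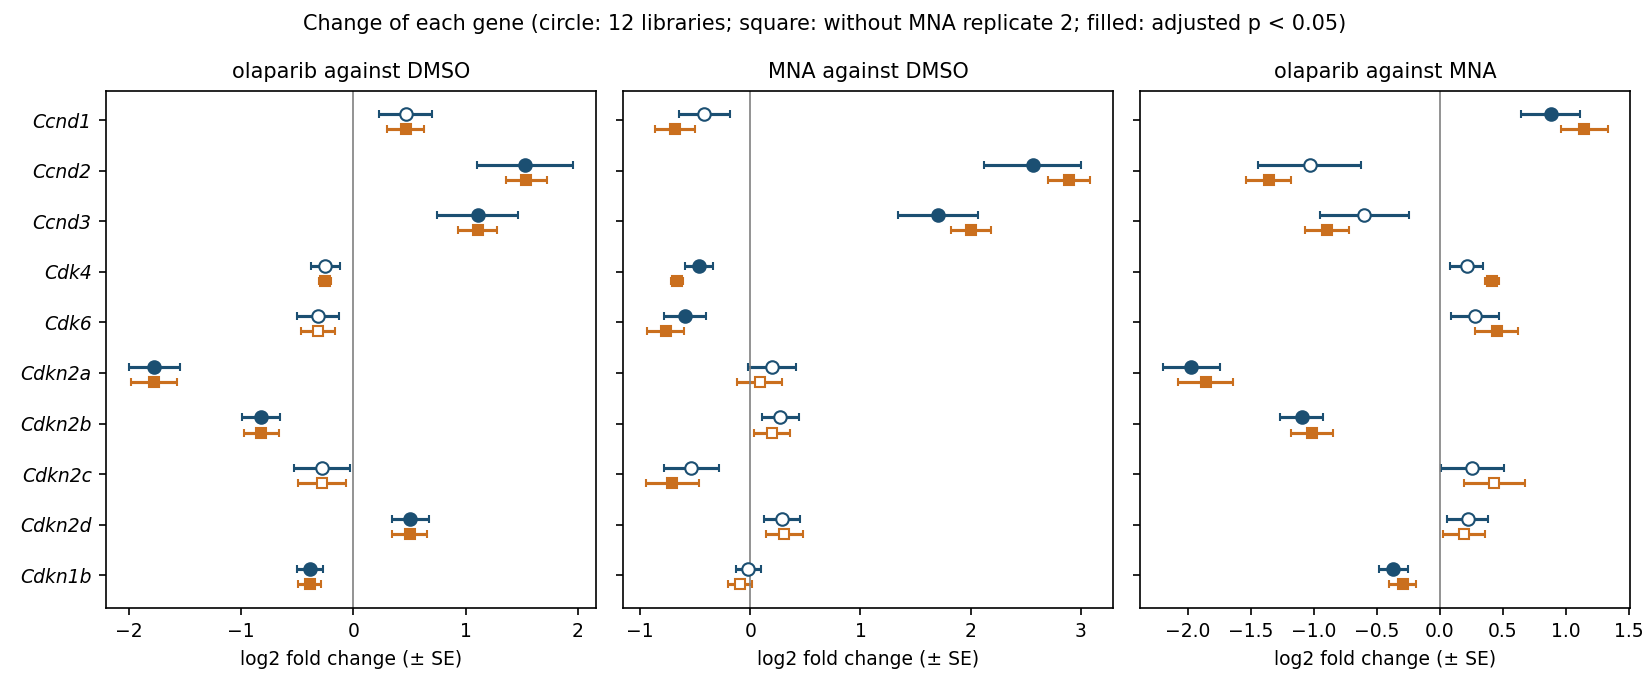
Log2 fold changes of the 10 genes with their SE in each of the 3 contrasts; circles are the fit of 12 libraries, squares the fit without MNA replicate 2, and filled symbols have an adjusted p under 0.05. The olaparib changes of Cdkn2a (-1.77) and Cdkn2b (-0.82) face values near 0 with MNA, while Ccnd2 and Ccnd3 lie to the right with both treatments.

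Ccnd2 encodes cyclin D2, the D cyclin that growth factors induce in many blood cells. Its level was 8.53, 6.37, 4.29 and 6.51 CPM in DMSO replicates 1 to 4, then 21.1, 16.9, 14.0 and 21.9 CPM with olaparib. In MNA replicates 1, 3 and 4 it was 49.4, 39.7 and 53.1 CPM, and in MNA replicate 2 it was 8.88 CPM. Every olaparib library lay above every DMSO library and below these 3 MNA libraries, while MNA replicate 2 was just above the highest DMSO library. The log2 fold change was 1.53 with olaparib (SE 0.43, adjusted p = 0.0214), a 2.89-fold rise. With MNA it was 2.56 (SE 0.44), or 2.90 without replicate 2, given as a description because its size was a known result when the list was made. Leaving out DMSO replicate 2, 3 or 4, or olaparib replicate 4, ended the olaparib call (adjusted p up to 0.0644), and the lowest value in any alternative was 1.23e-07.

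Ccnd3 encodes cyclin D3, which is broadly expressed in the blood lineage. It was at 14.9, 12.8, 8.38 and 14.5 CPM with DMSO and at 32.6, 27.4, 19.3 and 29.3 CPM with olaparib. MNA replicates 1, 3 and 4 held 52.6, 44.5 and 54.4 CPM, and MNA replicate 2 held 13.0 CPM. As for Ccnd2, the 4 olaparib libraries lay between the DMSO libraries and these 3 MNA libraries without overlap, and MNA replicate 2 lay within the DMSO range. The log2 fold change was 1.11 with olaparib (SE 0.36, adjusted p = 0.0398) and 1.70 with MNA (SE 0.36, adjusted p = 0.0144), or 2.0 with MNA without replicate 2. The olaparib call was lost in 8 of the 12 fits that left out 1 library (every DMSO library, olaparib replicates 1, 2 and 4, and MNA replicate 3), with adjusted p-values up to 0.107, and with robust dispersion (adjusted p = 0.05004). It held without MNA replicate 2 (1.11, adjusted p = 2.05e-04) and in the fit of DMSO and olaparib alone (adjusted p = 6.32e-04). Between olaparib and MNA the log2 difference was -1.03 for Ccnd2 (adjusted p = 0.0914) and -0.60 for Ccnd3 (adjusted p = 0.249). Without MNA replicate 2 these differences were -1.36 and -0.89, with adjusted p = 4.19e-05 and 0.00109.

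Ccnd1 encodes cyclin D1. Its level was 88.5, 70.4, 45.4 and 60.2 CPM with DMSO, 108, 95.1, 80.3 and 81.3 CPM with olaparib, and 46.8, 35.1 and 41.5 CPM in MNA replicates 1, 3 and 4, with 74.2 CPM in MNA replicate 2. All 4 olaparib libraries lay above all 4 MNA libraries, while the DMSO libraries spread across the gap and overlapped both. The difference between olaparib and MNA was 0.88 on the log2 scale (SE 0.23, adjusted p = 0.0194), and it missed the threshold without olaparib replicate 1, MNA replicate 3 or MNA replicate 4 (adjusted p up to 0.0594). Against DMSO it was 0.46 with olaparib (SE 0.23, adjusted p = 0.152) and -0.42 with MNA (adjusted p = 0.181). With the replicate number as a block the olaparib value was 0.49 and passed (adjusted p = 0.0372). Without MNA replicate 2 both passed, at 0.46 (adjusted p = 0.0328) and -0.68 (adjusted p = 0.00581). Of the 31-base words in Ccnd1 transcripts, 22.3% also occur in LTO1, which overlaps it on the opposite strand, and the strand column of the counts is not given in the sources used here. Reads of these genes cannot be told apart in the overlap if strand was ignored.

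The make-up of the D cyclin pool differed between libraries. On the CPM per kilobase scale Ccnd1 made up 86.8% ± 1.55 of the summed D cyclin level with DMSO and 79.3% ± 2.93 with olaparib (SD, n = 4 each). In MNA replicates 1, 3 and 4 it made up 44.7% ± 2.13 (SD, n = 3), and in MNA replicate 2 it made up 86.6%. The lowest DMSO share, 84.5%, was above the highest olaparib share, 82.2%. Ccnd2 took 4.22% ± 0.259 with DMSO, 8.06% ± 1.42 with olaparib and 25.8% ± 1.35 in these 3 MNA libraries, and Ccnd3 took 9.01% ± 1.33, 12.6% ± 1.61 and 29.5% ± 1.08. The summed level itself was 16.2 ± 4.30 CPM per kilobase with DMSO, 24.4 ± 3.44 with olaparib and 19.2 ± 2.10 over the 4 MNA libraries, with overlapping ranges. In MNA replicates 1, 3 and 4 the pool, at 16.7 to 21.2 CPM per kilobase, lay within the DMSO range of 11.1 to 21.4. This holds on the length-corrected scale alone, since in CPM the sum was 119 to 149 in these 3 libraries, above the DMSO range of 58.1 to 112. On either scale they held a smaller share of Ccnd1 and larger shares of Ccnd2 and Ccnd3 than any DMSO library. With olaparib all 3 cyclins had higher means than with DMSO.

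**Figure D3:**
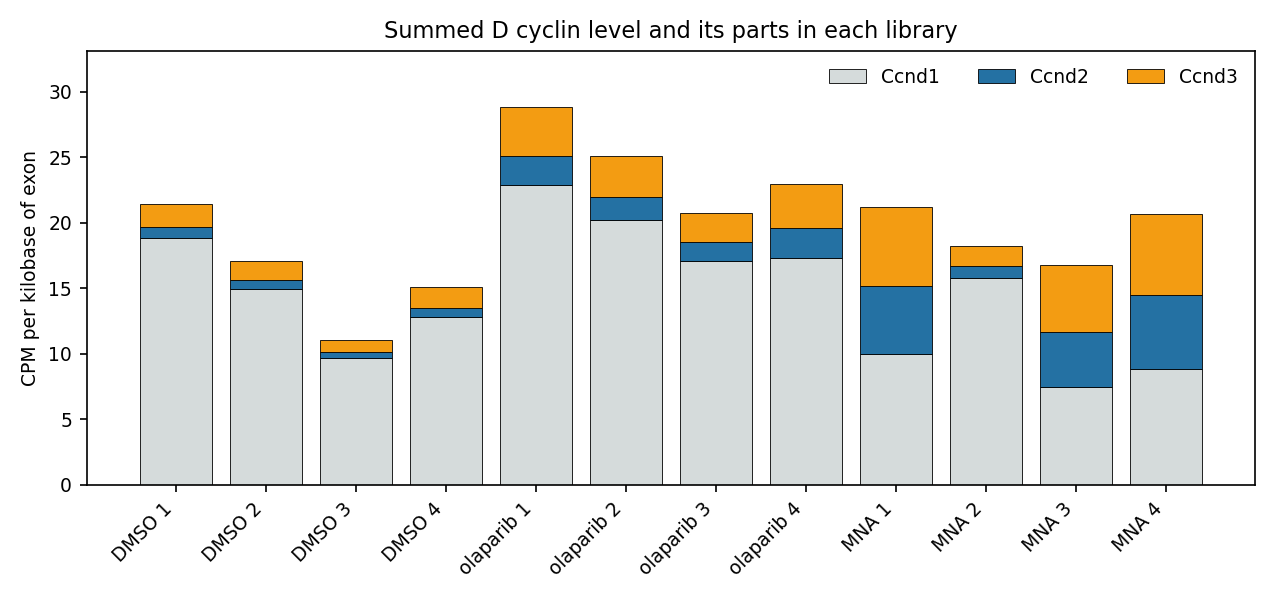
Summed D cyclin level in each library, in CPM per kilobase of exon, split into Ccnd1, Ccnd2 and Ccnd3; bars start at 0. Ccnd1 fills 42.7% to 46.9% of the bar in MNA replicates 1, 3 and 4 and at least 75.3% in all other libraries, MNA replicate 2 included.

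Ccnd2 and Ccnd3 moved together over all 12 libraries (Pearson r = 0.987, Spearman rho = 0.972), a description over libraries that share groups and, in part, replicate numbers. Among tested genes that averaged 100 counts or more, each was the nearest to the other in pattern. The next nearest were Twf2 (r = 0.984) and Mprip (r = 0.984) for Ccnd2, and Mprip (r = 0.985) and Sh3bp1 (r = 0.980) for Ccnd3. The ratio of Ccnd3 to Ccnd2 in CPM was 1.74 to 2.23 with DMSO, 1.34 to 1.62 with olaparib and 1.03 to 1.12 in MNA replicates 1, 3 and 4. In MNA replicate 2 it was 1.47. Ccnd1 did not follow them (r = -0.320 with Ccnd2), and its nearest genes were Tomm40 (r = 0.960), Mef2c (r = 0.949) and Rarg (r = 0.940).

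**Figure D4:**
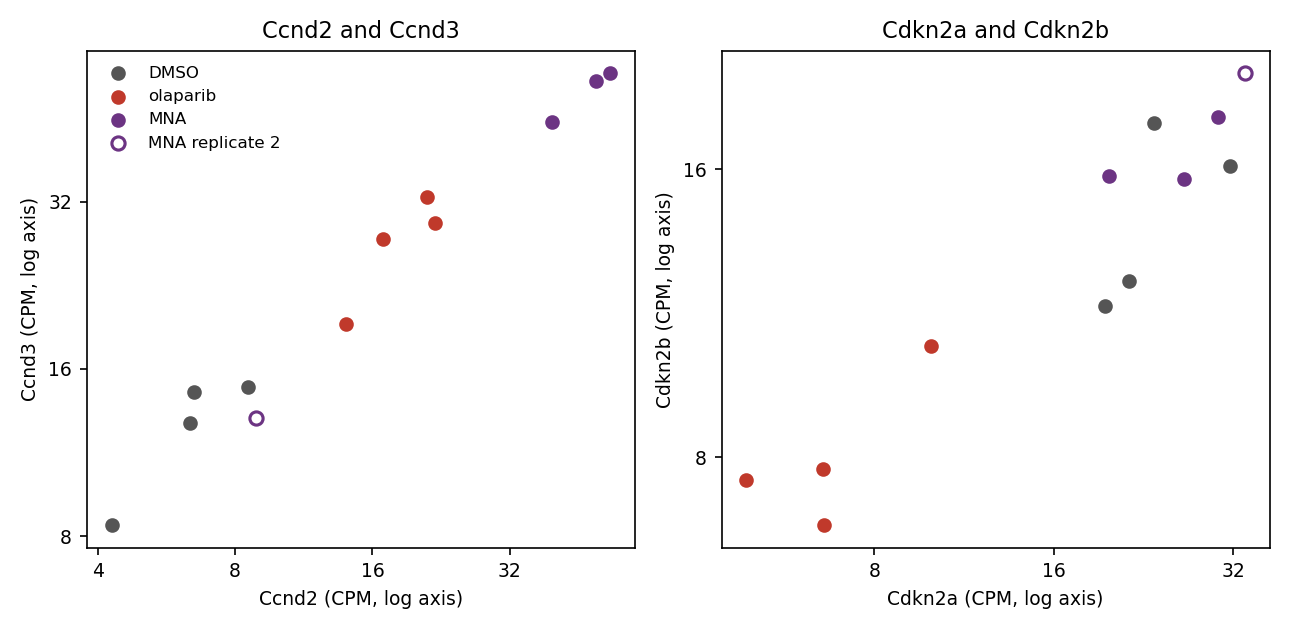
Levels of Ccnd2 against Ccnd3 and of Cdkn2a against Cdkn2b in the 12 libraries, in CPM on log axes; each point is a library and the open circle is MNA replicate 2. The cyclins order the groups as DMSO, olaparib and MNA, with MNA replicate 2 among DMSO, whereas the inhibitors set the 4 olaparib libraries below all others.

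Cdk4 and Cdk6 encode the catalytic partners of the D cyclins. Cdk4 was at 113, 123, 127 and 123 CPM with DMSO, and its 4 olaparib libraries held 100 to 105 CPM. MNA replicates 1, 3 and 4 held 75.0, 79.6 and 75.7 CPM, and MNA replicate 2 held 121 CPM. The groups did not overlap once MNA replicate 2 was set aside, in the reverse order to that of Ccnd2 (r = -0.960 over 12 libraries). With MNA it fell by 0.47 on the log2 scale (SE 0.13, adjusted p = 0.0254), or by 0.66 without replicate 2. With MNA replicate 2 in the fit the olaparib value of -0.25 did not pass (adjusted p = 0.164); without it the value was -0.25 and passed (adjusted p = 0.00109), as it did in the fit of DMSO and olaparib alone (adjusted p = 0.00134). The MNA call was lost without any 1 of DMSO replicates 2, 3 and 4 or MNA replicates 1, 3 and 4 (adjusted p up to 0.0813). Tspan31, on the opposite strand, holds 18.1% of the 31-base words of Cdk4.

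Cdk6 was at 14.8, 16.6, 12.1 and 16.9 CPM with DMSO, at 14.0, 13.9, 11.9 and 8.81 CPM with olaparib, and at 10.3, 7.45 and 8.85 CPM in MNA replicates 1, 3 and 4. MNA replicate 2 held 13.3 CPM, within the DMSO range, and the other 3 MNA libraries lay below every DMSO library. Its log2 fold change with MNA was -0.59 (SE 0.19, adjusted p = 0.0385), or -0.77 without replicate 2, and with olaparib -0.31 (SE 0.19, adjusted p = 0.232). The MNA call was lost in 8 of the 12 fits without 1 library (every DMSO library, olaparib replicate 3, and MNA replicates 1, 3 and 4), with adjusted p-values up to 0.112. Per kilobase, Cdk4 made up 97.2% ± 0.428 of the summed kinase level with DMSO, 97.3% ± 0.546 with olaparib and 97.4% ± 0.403 with MNA (SD, n = 4 each), so the balance of the 2 kinases differed by less than the spread. The nearest genes in pattern were Nupr1 (r = 0.994), Snx1 (r = 0.991) and Tceal8 (r = 0.989) for Cdk4, and Usp19 (r = 0.945), Ttc37 (r = 0.927) and Flna (r = 0.925) for Cdk6.

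The Cdk4 window is shown because Myc, one of the genes counted below, encodes a factor that binds the E-box CACGTG, and Cdk4 is a known Myc target. It is the 250 bases before the RefSeq start, chr10:127063285-127063534 of GRCm38.p6 on the plus strand, with E-boxes and SP1 letters (GGGCGG, here on the opposite strand) in capitals.
Cdk4: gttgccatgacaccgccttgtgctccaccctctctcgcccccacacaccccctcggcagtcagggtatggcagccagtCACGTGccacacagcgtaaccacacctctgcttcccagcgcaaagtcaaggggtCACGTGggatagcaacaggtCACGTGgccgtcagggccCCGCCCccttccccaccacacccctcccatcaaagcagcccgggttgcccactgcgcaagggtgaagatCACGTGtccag
The window holds 4 E-boxes, where 6.02% of 32851 RefSeq promoter windows of this length hold at least 1 and 7 windows hold 4 or more. Myc itself was not called against DMSO (log2 fold change -0.21 with olaparib, adjusted p = 0.141, and 0.18 with MNA, adjusted p = 0.195), and it was lower with olaparib than with MNA by -0.39 (adjusted p = 0.0191).

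Cdkn2a encodes 2 proteins, p16INK4a, a CDK4/6 inhibitor, and p19ARF, which stabilizes p53. They start in different first exons and share the second exon in different reading frames, so a count per gene does not separate them. The last 30 bases of each first exon (lower case) and the first 30 bases of the shared second exon (capitals), all coding, show where the transcripts join, in GENCODE release 21 for mouse on GRCm38.
Cdkn2a-201 (p16INK4a): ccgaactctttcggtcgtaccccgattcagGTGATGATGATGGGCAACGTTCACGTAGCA
Cdkn2a-202 (p19ARF): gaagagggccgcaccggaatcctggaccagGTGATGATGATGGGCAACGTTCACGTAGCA
Of the exon bases, 67.5% of the first and 64.2% of the second transcript lie in both. The p16INK4a first exon is at chr4:89281986-89282192 and that of p19ARF at chr4:89294334-89294653, both on the minus strand. Cdkn2b, which encodes the CDK4/6 inhibitor p15INK4b, lies 11645 bases from Cdkn2a on the same strand, at chr4:89306299-89311039.

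The start regions of these neighbours are shown because the 2 genes moved together. Each is the 250 bases before a RefSeq start in GRCm38.p6, read on the minus strand, with E2F letters (TTTCCCGC, TTTCGCGC, TTTGCCGC or TTTGGCGC), SP1 letters (GGGCGG) and the cyclic AMP response element (TGACGTCA) in capitals, on either strand. In order they are chr4:89294620-89294869, chr4:89282193-89282442 and chr4:89311033-89311282.
Cdkn2a, p19ARF start: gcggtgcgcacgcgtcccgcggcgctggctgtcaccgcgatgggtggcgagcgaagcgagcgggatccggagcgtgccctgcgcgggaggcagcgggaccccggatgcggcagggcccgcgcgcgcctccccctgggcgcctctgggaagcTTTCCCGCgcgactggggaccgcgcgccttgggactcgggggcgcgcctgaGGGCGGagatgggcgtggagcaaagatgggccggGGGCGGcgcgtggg
Cdkn2a, p16INK4a start: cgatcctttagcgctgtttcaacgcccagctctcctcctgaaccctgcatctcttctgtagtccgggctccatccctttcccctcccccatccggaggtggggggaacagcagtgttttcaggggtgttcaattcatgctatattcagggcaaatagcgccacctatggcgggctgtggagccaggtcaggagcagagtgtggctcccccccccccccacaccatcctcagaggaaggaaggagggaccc
Cdkn2b: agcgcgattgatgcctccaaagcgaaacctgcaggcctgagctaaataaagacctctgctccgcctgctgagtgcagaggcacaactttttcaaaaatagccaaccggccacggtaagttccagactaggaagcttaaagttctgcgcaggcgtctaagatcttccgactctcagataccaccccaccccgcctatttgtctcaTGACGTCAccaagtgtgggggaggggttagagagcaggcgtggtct
The p19ARF window holds 1 E2F match, which begins 99 bases before the start, and 2 SP1 matches, the p16INK4a window holds none of these letters, and the Cdkn2b window holds 1 cyclic AMP response element. Over all 32851 windows, 1.86% hold an E2F match, 32.7% an SP1 match and 1.55% a cyclic AMP response element. No 2 of the 3 windows share one of these motifs. RefSeq promoter entries matched 8 of the 10 genes, and Ccnd1 and Ccnd2 were not matched.

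Cdkn2a was at 23.5, 31.7, 19.5 and 21.4 CPM with DMSO and at 9.96, 6.56, 4.88 and 6.58 CPM with olaparib. With MNA it was at 19.8, 33.5, 26.4 and 30.2 CPM in replicates 1 to 4. Every olaparib library lay below every DMSO and MNA library, the DMSO and MNA libraries overlapped, and MNA replicate 2 was the highest of all 12. The log2 fold change was -1.77 with olaparib (SE 0.23, adjusted p = 4.06e-04), a 3.42-fold fall, and 0.20 with MNA (SE 0.22, adjusted p = 0.501), or 0.08 without replicate 2. The difference between olaparib and MNA was -1.97 (SE 0.23, adjusted p = 1.72e-04), or -1.86 without MNA replicate 2.

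Cdkn2b showed the same order with a smaller step. It was at 17.9, 16.1, 11.5 and 12.2 CPM with DMSO, at 10.5, 7.78, 7.57 and 6.79 CPM with olaparib, and at 15.8, 20.2, 15.6 and 18.1 CPM with MNA. The 4 olaparib libraries again lay below the other 8, and MNA replicate 2 was again the highest. Its log2 fold change with olaparib was -0.82 (SE 0.17, adjusted p = 0.00541), a 1.77-fold fall, and with MNA 0.27 (SE 0.17, adjusted p = 0.220), or 0.20 without replicate 2. The difference between olaparib and MNA was -1.10 (adjusted p = 0.00109), or -1.02 without MNA replicate 2. The olaparib calls of Cdkn2a and Cdkn2b, against DMSO and against MNA, held in all 20 alternatives each.

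Over the 12 libraries Cdkn2a and Cdkn2b had r = 0.945 and rho = 0.916. Cdkn2b was the third nearest gene to Cdkn2a, after Hid1 (r = 0.948) and Sfpq (r = 0.947), and Cdkn2a was the second nearest to Cdkn2b, between Gemin5 (r = 0.947) and Slc4a2 (r = 0.943). The CPM ratio of Cdkn2a to Cdkn2b was 1.31 to 1.96 with DMSO and 1.26 to 1.69 with MNA, and 0.644 to 0.969 with olaparib. Per kilobase, the summed level of the INK4 genes was 39.5 ± 5.76 CPM with DMSO, 21.7 ± 2.26 with olaparib and 44.4 ± 7.29 with MNA (SD, n = 4 each), or 41.8 ± 6.37 without replicate 2 (n = 3). All Cdkn2a reads are counted in this sum, those of p19ARF transcripts included, so it is not a level of INK4 transcripts alone. Cdkn2a took 51.5% ± 3.80, 27.2% ± 5.89 and 52.5% ± 3.53 of that sum. In bulk RNA, fewer cells of a type and less RNA per cell cannot be told apart, here or for any gene described.

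Cdkn2c and Cdkn2d encode p18INK4c and p19INK4d, INK4 proteins from separate loci. Cdkn2d was at 5.44, 7.81, 6.90 and 8.82 CPM with DMSO, at 8.09, 10.6, 10.5 and 12.1 CPM with olaparib, and at 8.80, 8.31, 7.87 and 10.4 CPM with MNA. Olaparib replicates 2, 3 and 4 lay above every DMSO library, and the MNA libraries overlapped both groups. It rose with olaparib by 0.51 on the log2 scale (SE 0.16, adjusted p = 0.0382), in the opposite direction to Cdkn2a and Cdkn2b, and its value with MNA was 0.28 (adjusted p = 0.193), or 0.31 without replicate 2. The olaparib call was lost without any 1 of DMSO replicates 1, 2 and 3 or olaparib replicates 2, 3 and 4 (adjusted p up to 0.109), or with no filter on low counts (adjusted p = 0.0549). It held without MNA replicate 2 (0.50, adjusted p = 0.0186). Cdkn2d took 11.8% ± 2.71 of the summed level of the INK4 genes per kilobase, all Cdkn2a reads included, with DMSO and 30.6% ± 6.20 with olaparib. Its nearest genes were 1190002N15Rik (r = 0.918), Tnik (r = 0.907) and Vgll4 (r = 0.897).

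Cdkn2c was at 7.64, 10.4, 12 and 13.1 CPM with DMSO, at 7.98, 6.44, 8.16 and 13.1 CPM with olaparib, and at 5.10, 9.92, 6.72 and 8.08 CPM with MNA. The 3 groups overlapped. The log2 fold change was -0.28 with olaparib (SE 0.25, adjusted p = 0.427) and -0.53 with MNA (SE 0.25, adjusted p = 0.118), or -0.71 with MNA without replicate 2 (adjusted p = 0.0227). Its nearest genes were Tmem60 (r = 0.894), Klhl22 (r = 0.888) and Selenow (r = 0.881).

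Cdkn1b, the p27 gene, was at 28.6, 34.5, 33.2 and 31.7 CPM with DMSO, at 27.5, 25.5, 19.7 and 25.2 CPM with olaparib, and at 27.5, 36.2, 33.9 and 28.8 CPM with MNA. The olaparib libraries lay below all others by a narrow margin. It fell with olaparib (log2 fold change -0.39, SE 0.12, adjusted p = 0.0282) and its value with MNA was near 0 (-0.02, SE 0.12, adjusted p = 0.911, or -0.09 without replicate 2). The olaparib call did not hold without DMSO replicate 2, 3 or 4 or olaparib replicate 2, 3 or 4 (adjusted p up to 0.0769). Without MNA replicate 2 it held (-0.39, adjusted p = 0.00676). The difference between olaparib and MNA was -0.37 (adjusted p = 0.0401) and missed the threshold in 7 of the 12 fits without 1 library (DMSO replicates 2, 3 and 4, olaparib replicates 2, 3 and 4, and MNA replicate 3; adjusted p up to 0.101). Its nearest genes were Rybp (r = 0.931), the gene ENSMUSG00000100370 (r = 0.925) and Pigl (r = 0.912).

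Of the 10 genes, 6 had olaparib libraries that did not overlap the DMSO libraries (Ccnd2 and Ccnd3 above, Cdk4, Cdkn2a, Cdkn2b and Cdkn1b below), where 41.0% of all tested genes did so. With MNA, Ccnd2 alone did so over all 4 libraries, where 12.4% of all genes did, and Ccnd2, Ccnd3, Cdk4 and Cdk6 did so without replicate 2, where 54.4% of all genes did. Between olaparib and MNA, Ccnd1 lay above and Cdkn2a, Cdkn2b and Cdkn1b below in every library, where 21.2% of all genes were apart, and 7 of the 10 were apart without MNA replicate 2, where 46.3% were. Other values moved with the groups too. The share of counts from mitochondrial genes was 1.04% to 1.35% with DMSO, 1.59% to 1.82% with olaparib and 1.61% to 2.25% in MNA replicates 1, 3 and 4, with 1.14% in replicate 2. The part of this share, and of the macrophage, alternative activation, B cell, T cell and progenitor marker levels given above, in these results was not tested. Without MNA replicate 4, which held the neutrophil and erythroid markers, the log2 fold changes with MNA were 2.35 for Ccnd2 and 1.54 for Ccnd3. With all 4 MNA libraries they were 2.56 and 1.70. Both fits kept MNA replicate 2, which lay within or next to the DMSO range of these genes and weighed more once replicate 4 was left out.

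The genes around these kinases were counted over 9 lists drawn from general knowledge of the pathway, 88 genes of which 86 were tested. With olaparib 23 rose and 14 fell, where 27.0% of all tested genes were called, and with MNA 16 rose and 10 fell, where 28.6% were called. Between olaparib and MNA 6 were higher and 7 lower with olaparib, where 21.8% of all genes were called. Without MNA replicate 2 it was 42 up and 15 down with olaparib, 38 up and 19 down with MNA, and 11 higher and 14 lower between them, where 43.7%, 54.1% and 42.3% of all genes were called. With the replicate block 33 rose and 13 fell with olaparib, where 28.8% of all genes were called. The fold changes with MNA in the following paragraphs are from all 12 libraries. The median log2 fold change over the 86 was 0.26 with olaparib and 0.16 with MNA, where the median of all tested genes was 0.0038 and 2.0e-04.

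The retinoblastoma family is a direct target of CDK4/6, and E2F factors are its partners. Of the 3 pocket proteins, Rbl2 (log2 fold change 0.49, adjusted p = 0.00366) and Rb1 (0.25, adjusted p = 0.0398) rose with olaparib, and with MNA the same genes rose by 0.31 (adjusted p = 0.0325) and 0.33 (adjusted p = 0.0202). Of the 10 E2F and DP factors, 2 rose and 2 fell with olaparib, where 27.0% of all tested genes were called. With MNA 2 rose, where 28.6% were called. E2f2, an activator E2F, was at 3.55 to 5.24 CPM with DMSO, 8.96 to 14.7 CPM with olaparib and 1.62 to 4.15 CPM with MNA, so the olaparib libraries lay above all others. It rose by 1.27 with olaparib (adjusted p = 0.00482) and differed between olaparib and MNA by 1.81 (adjusted p = 6.84e-04). E2f5, a repressor E2F, fell with olaparib (-0.48, adjusted p = 0.00465) and E2f1 rose with MNA (0.69, adjusted p = 0.0231), while Tfdp2 rose with both (0.34 and 0.27, adjusted p = 0.00935 and 0.0264).

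Of the 2 other CIP/KIP inhibitors, Cdkn1a parted by treatment and Cdkn1c did not. Cdkn1a, the p53 target p21, was at 378 to 424 CPM with DMSO, 540 to 573 CPM with olaparib, and 235 to 253 CPM in MNA replicates 1, 3 and 4, with 394 CPM in MNA replicate 2. Olaparib libraries lay above and these 3 MNA libraries below all DMSO libraries. Cdkn1a rose with olaparib (0.49, SE 0.14, adjusted p = 0.0240) and fell with MNA (-0.51, SE 0.14, adjusted p = 0.0247), and the difference between the treatments was 0.99 (adjusted p = 6.09e-04). Cdkn1c, the p57 gene, was at 6.95 to 11 CPM with DMSO and 19.1 to 28.4 CPM with olaparib and rose by 1.42 (adjusted p = 0.00913). In MNA replicates 1, 3 and 4 it was at 18.6 to 24.3 CPM and in replicate 2 at 5.77 CPM, with a log2 fold change of 0.90 (adjusted p = 0.0546), or 1.19 without replicate 2 (adjusted p = 2.33e-05). For Cdkn1c the difference between olaparib and MNA was 0.52 (adjusted p = 0.153), or 0.23 without MNA replicate 2 (adjusted p = 0.251).

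Downstream of E2F, 3 of 20 S-phase target genes rose and 1 fell with olaparib, where 27.0% of all tested genes were called. With MNA 1 rose and 1 fell, where 28.6% were called. With the replicate block 8 rose and 1 fell with olaparib, where 28.8% of all tested genes were called. Without MNA replicate 2 it was 11 up and 1 down with olaparib and 9 up and 4 down with MNA, where 43.7% and 54.1% were called. Dut, a dUTPase, rose with olaparib (0.85, adjusted p = 8.74e-04), and Pcna, the replication clamp, rose with both (0.55 and 0.60, adjusted p = 0.0125 and 0.0160). Cdt1, an origin licensing factor, fell with both (-0.66 and -0.48, adjusted p = 0.00987 and 0.0376). Between olaparib and MNA, Dut (1.20, adjusted p = 8.03e-05) and Cdc45 (0.83, adjusted p = 0.0157) were higher with olaparib. Of 8 tested genes of cyclin E, cyclin A, CDK2 and its activators, 3 rose and 1 fell with olaparib, led by Ccnh (-0.37, adjusted p = 0.0107), Ccne1 (0.47, adjusted p = 0.0254) and Ccna2 (1.80, adjusted p = 0.0254). With MNA, Cdk2 (0.41, adjusted p = 0.0210) and Cdc25a (0.35, adjusted p = 0.0213) rose.

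All 12 mitosis genes had positive values in both contrasts with DMSO, 8 of them called with olaparib and 4 with MNA, with medians of 1.13 and 0.80. Of all tested genes, 27.0% were called with olaparib and 28.6% with MNA. With the replicate block all 12 were called with olaparib, where 28.8% of all tested genes were called. Mki67, the proliferation marker, was at 5.49 to 14.9 CPM with DMSO, 18.8 to 39.2 CPM with olaparib and 24.6 to 42.2 CPM in MNA replicates 1, 3 and 4, with 6.05 CPM in replicate 2. The treated libraries other than MNA replicate 2 lay above all DMSO libraries. The largest called change in the list was that of Ccnb2, cyclin B2, at 2.58 with olaparib (adjusted p = 0.0115) and 1.99 with MNA (adjusted p = 0.0354). Plk1 (1.80, adjusted p = 0.00806) and Cdk1 (1.27, adjusted p = 0.0124) also rose with olaparib. With MNA these genes rose too, by 1.16 (adjusted p = 0.0496) and 1.05 (adjusted p = 0.0301).

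**Figure D5:**
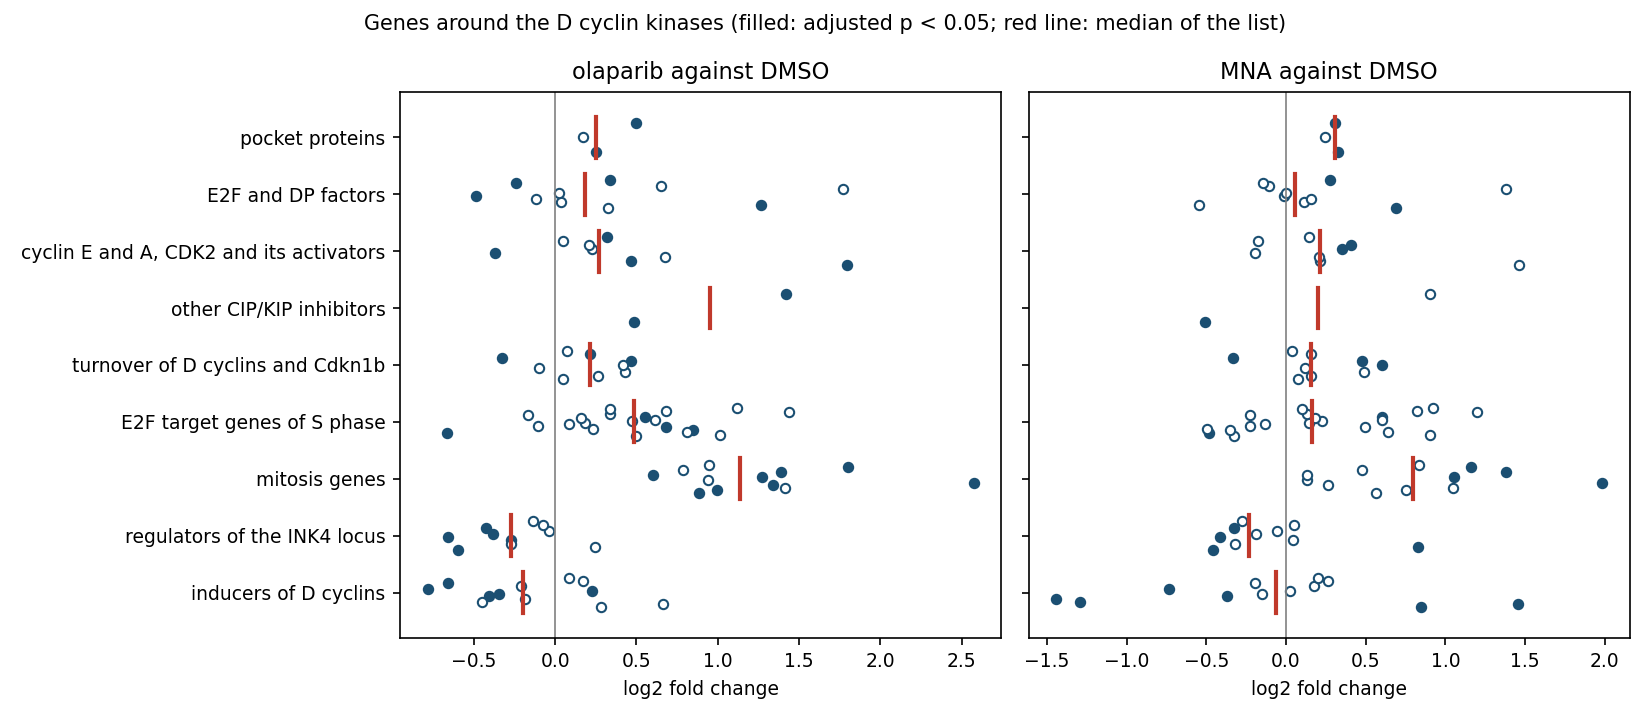
Log2 fold changes of the tested genes of 9 pathway lists against DMSO, with olaparib on the left and MNA on the right; each point is a gene, filled where its adjusted p was under 0.05, and the red line is the list's median. Mitosis genes lie to the right of 0 in both panels, and 9 of 10 regulators of the INK4 locus lie to the left with olaparib.

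Of 10 tested regulators of the INK4 locus, which include Polycomb repressors and activators, 5 fell with olaparib (4 with the replicate block, without Dmtf1), and 3 fell and 1 rose with MNA. Among all tested genes 27.0% were called with olaparib and 28.6% with MNA. Ets1, an activator of p16INK4a, fell with both (-0.66 and -0.41, adjusted p = 0.00680 and 0.0486), as did Kdm6b, the H3K27 demethylase (-0.43 and -0.33, adjusted p = 0.0136 and 0.0410), and Bmi1, a Polycomb repressor of the locus (-0.60 and -0.46, adjusted p = 0.0180 and 0.0498). Cbx7, another Polycomb repressor, rose with MNA (0.83, adjusted p = 0.0193). Dmtf1, an activator of p19ARF, was lower with olaparib than with MNA (-0.32, adjusted p = 0.0228). The median over the list was -0.27 with olaparib and -0.23 with MNA.

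Upstream of the D cyclins, 1 of 12 inducers and regulators rose and 4 fell with olaparib, where the replicate block ended the rise (Foxo3, adjusted p = 0.0508), and 2 rose and 4 fell with MNA. In these 2 contrasts 27.0% and 28.6% of all tested genes were called. Csf1r, the M-CSF receptor, was at 436 to 605 CPM with DMSO, 772 to 931 CPM with olaparib, and 1649 to 1838 CPM in MNA replicates 1, 3 and 4, with 467 CPM in replicate 2. This was the order of Ccnd2 and Ccnd3, with olaparib between DMSO and these MNA libraries, and a link to Csf1r was not tested. Csf1r rose with MNA (1.45, SE 0.32, adjusted p = 0.0153), or by 1.74 without replicate 2. Its value with olaparib was 0.66 (adjusted p = 0.131) and passed without MNA replicate 2 (0.66, adjusted p = 1.39e-04), and Csf1, which encodes M-CSF, rose with MNA (0.84, adjusted p = 0.0142). Jun fell with both (-0.78 with olaparib, adjusted p = 0.0125, and -0.74 with MNA, adjusted p = 0.0219), and Stat3 fell with olaparib (-0.66, adjusted p = 4.06e-04). Among 9 genes for the turnover of D cyclins and p27, 2 rose and 1 fell with each treatment. The share of all tested genes called was 27.0% with olaparib and 28.6% with MNA. Gsk3b, whose kinase marks D cyclins for export and decay, fell with both (-0.33 each, adjusted p = 0.0245 and 0.0278), and Fbxo4, an F-box subunit of a ubiquitin ligase, rose with both (0.47 and 0.48, adjusted p = 0.0319 and 0.0315).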

How the data were processed

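Polyadenylated RNA of 12 BMDM cultures was sequenced from stranded libraries, and the authors aligned reads with STAR 2.5.2b to GRCm38.p5. The deposited values are raw counts per Ensembl gene, 1 file per library. The strand column was not given in the sources used here. Of the gene IDs, 34490 were named from GENCODE release 21 for mouse. Genes were kept by filterByExpr (minimum count 10, minimum total 15) and tested with edgeR 4.0.16 in R 4.3.3 (TMM, quasi-likelihood F test, 12 libraries in 1 fit, no block). The genes and lists were chosen with earlier results of these data known. Named genes are the 10 listed, the 3 called genes of smallest p in a list and contrast (1 if none passed), and the 3 nearest in pattern, of which the text gives a part. Same-numbered olaparib and DMSO libraries deviated together (r = 0.227, 0.172, 0.225 and 0.408), so that pairing was taken from the data, and a blocked fit is given where it changed the call of one of the 10 genes or moved a list's count the most. On simulated counts for olaparib against DMSO (12687 genes), edgeR recovered 200 of 200 changed genes with 10 false calls. The simulated spread was below the common dispersion of the data (0.0333), the changes were large and in well-counted genes, and no library stood apart. The check therefore says nothing on small changes near the threshold. Alternatives were DESeq2 1.42.0, other scalings and filters, and libraries left out.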

Additional observations from a re-analysis of the deposited data

Results flagged for a closer look

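By Dixon's criterion for 4 samples, 5 of 39 group values examined held 1 library far from the other 3. Chance alone flags about 1 in 20 independent groups. The 39 are not independent, because they share the same 12 libraries and the shares are computed from the levels. Of the 5, 4 were MNA replicate 2, which had already been set apart on its expression. Its Ccnd2 level was 8.88 CPM against 39.7 to 53.1 CPM in the other MNA libraries, its Ccnd3 level 13.0 CPM against 44.5 to 54.4 CPM, and its Cdk4 level 121 CPM against 75.0 to 79.6 CPM. Its Ccnd1 share of the D cyclin level was 86.6% against 42.7% to 46.9%. In each case the value lay within or next to the range of the DMSO libraries, and the cause was not tested. The fifth was the Cdk6 share of the summed Cdk4 and Cdk6 level in DMSO replicate 3, 2.17% against 2.94% to 3.08%.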

How the results depend on the processing

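Over 20 alternatives for each of 10 genes and 3 contrasts, 520 kept their direction and their side of the threshold, 56 lost a call, 21 gained one and 3 changed sign. The 3 were Cdkn1b with MNA against DMSO, never called, -0.02 over all libraries and at 0.018, 0.042 and 0.025 without DMSO replicate 2, MNA replicate 1 or MNA replicate 4 (range -0.0939 to 0.0424). In the fit of DMSO and MNA alone, 0 of the 10 genes and 0 of the 86 pathway genes passed edgeR's test (lowest adjusted p = 0.0640 over all genes, 4728 genes at an unadjusted p under 0.05), and the cause was not tested; DESeq2 on all 12 libraries called 4449 genes. Leaving out 1 library moved the genes called among the 10 from 2 to 8 (olaparib against DMSO), 2 to 6 (MNA against DMSO) and 2 to 8 (olaparib against MNA), and those of the pathway lists from 19 to 57, 1 to 57 and 8 to 25, while the share of all genes called moved from 16.6% to 43.7%, 3.55% to 54.1% and 14.9% to 42.3%. The highest counts came without MNA replicate 2, when the common dispersion was 0.0123 in place of 0.0333. Without MNA replicate 2 and with the replicate block, 63 pathway genes passed for olaparib, 7 of the 10 and 61 pathway genes for MNA, and 9 and 28 between them, where 47%, 55% and 44.1% of all genes passed. The replicate block alone moved pathway genes called from 37 to 46 (olaparib against DMSO), 26 to 35 (MNA against DMSO) and 13 to 15 (olaparib against MNA). With it, 28.8%, 32.4% and 22.2% of all genes were called in these contrasts. The block ended 1 call among the 10, Cdkn1b between olaparib and MNA (adjusted p = 0.0538), and made 1, Ccnd1 with olaparib. Same-numbered MNA libraries correlated with DMSO at -0.0094 to 0.277 and with olaparib at 0.0696 to 0.392, and since not every pair was over 0.1 these numbers were not taken as pairing. With the block, calls among the 12 mitosis genes went from 4 to 6 with MNA, and 2 (Ccnb1 and Cdc20) passed between olaparib and MNA. Without length correction the D cyclin shares were 77.5% and 66.8% for Ccnd1, 7.53% and 13.5% for Ccnd2, and 15% and 19.7% for Ccnd3, with DMSO and olaparib. In MNA replicates 1, 3 and 4 they were 29.6%, 34.0% and 36.4%, so Ccnd1 was the smallest share there in CPM and the largest per kilobase.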
